A study of Rattus norvegicus with 49 samples.

Results

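The 12 arrays described here hold thyroid RNA of adult male Sprague Dawley rats given 50 kBq of 131I, a radioactive iodine isotope that the thyroid takes up and that decays there by beta emission. They are every array labelled as an adult rat given that activity, a choice made with earlier results of these data known. They are 12 of the 49 one-colour gene expression arrays in the series. The rats were injected intravenously at 17 weeks of age and killed 3, 6 or 9 months later, at 7, 10 and 13 months of age. Every time has 4 arrays, labelled by replicate number. All the rats had the same treatment, so the comparison among the arrays is one of time after injection. The age of the rat increased by the same steps, and the 2 cannot be told apart in these 12 arrays. The rest of the series holds untreated controls, of which those of 7, 10 and 13 months of age (3, 4 and 3 arrays) are used below, and young rats injected at 5 weeks of age, of which those given 50 kBq and killed 3, 6 and 9 months later at 4, 7 and 10 months of age (4 arrays each) are used.

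Follicular thyrocytes take up iodide through the sodium iodide symporter, attach it to thyroglobulin, and secrete thyroid hormone from the digested protein. Because they make and fold so much thyroglobulin, they carry a large endoplasmic reticulum and its chaperones. Like other tissues, the thyroid has a circadian clock, in which BMAL1 and CLOCK switch on their own repressors and a set of output transcription factors, so that the transcripts of a clock gene rise and fall over the day.

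Every level given here is the log2 of the Agilent processed signal minus the log2 of that array's 75th percentile, so that 0 is a probe at the 75th percentile of its own array and a difference of 1 is a doubling of the signal. Levels are compared only within a probe. The values of a group are given in the order of its replicates 1 to 4. A transcript is said to have risen or fallen only where limma's moderated test gave a Benjamini-Hochberg adjusted p under 0.01 with a fold change above 1.5, and in other cases the values are given. Between 71.6% and 82.5% of the probes were well above background on each array.

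The RNA was of thyroid. All 11 tested genes of thyroid hormone synthesis were well above background, with thyroglobulin (Tg) at 6.62, 6.92, 7.15 and 7.38 at 3 months, 7.07, 7.57, 7.19 and 7.17 at 6 months, and 7.15, 7.39, 6.97 and 7.05 at 9 months. The dissected tissue also held neighbouring tissue in amounts that differed between arrays. In 9-month replicate 3, fast skeletal muscle transcripts were nearly absent (mean log2 level of the list -1.97, against 6.65 to 6.99 in the other 9-month arrays), as were those of slow skeletal muscle (-4.35). Slow muscle was also low in 3-month replicate 2 (-2.24, against 2.03 to 2.65). Parathyroid hormone (Pth) was at -7.77 in 9-month replicate 2 and at 6.43 to 6.49 in the other 9-month arrays. Transcripts of squamous epithelium were high in 4 of the 12 arrays, as given below. The 6-month replicates 1 and 2 were unusually alike. Over 10938 bright probes the SD of their log2 differences was 0.220, against 0.308 or more in every other pair of these arrays. None of 18 probes that are switched on or off between rats differed between them. That was also so for 3-month replicate 1 and 9-month replicate 4 (SD 0.423), so it does not single out the 6-month pair. The 6-month replicates 1 and 2 lay on different slides and in different scans and were kept as 2 arrays. Whether they come from 2 rats was not tested. If they hold 1 RNA, the 6-month group has 3 independent samples. With them averaged, a choice made after seeing the data, the log2 changes of Dbp described below were 2.21 (limma adjusted p = 0.000374) and -2.14 (limma adjusted p = 0.000719). Among the controls, replicates 1 and 2 at 13 months were closer still (0.178, the lowest of all 1176 pairs of arrays in the series).

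**Figure D1:**
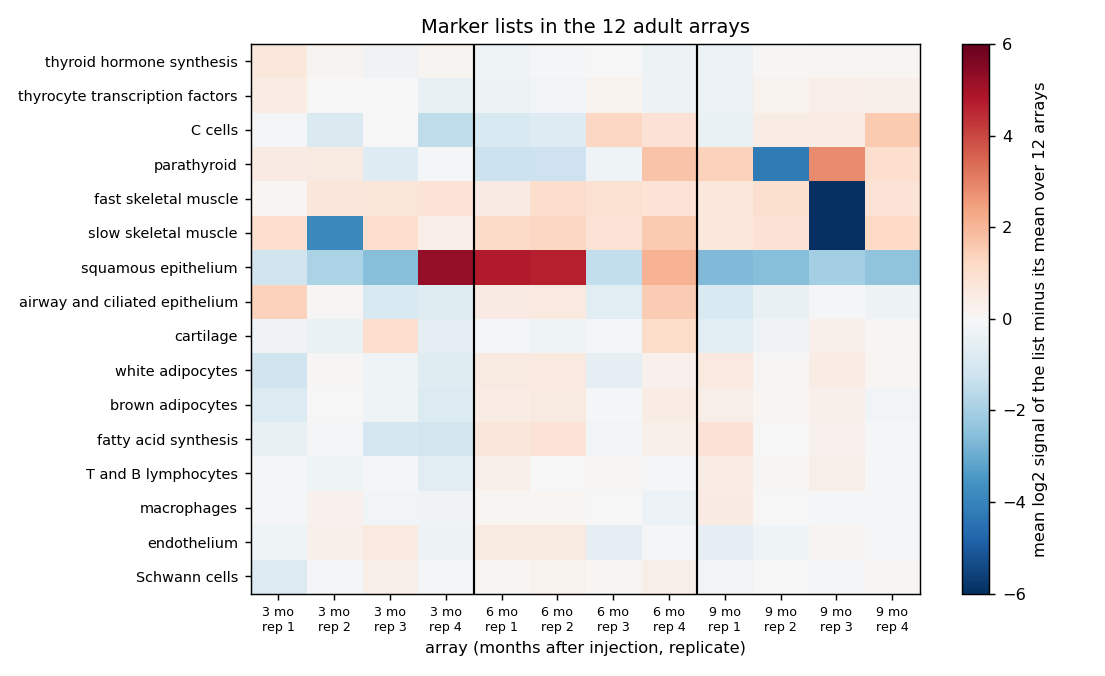
Heat map of 16 marker lists (vertical) in the 12 arrays (horizontal, by time and replicate); colour is the mean log2 level of the list minus its mean over the 12 arrays, with the scale ending at 6 in both directions. Skeletal muscle is low in 9-month replicate 3, parathyroid in 9-month replicate 2, and squamous epithelium is high in 3-month replicate 4 and in 6-month replicates 1, 2 and 4.

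Few transcripts differed between the times beyond the spread between rats. Of 23529 probes tested, 3 (0.0128%) rose from 3 to 6 months and 3 (0.0128%) fell from 6 to 9 months, and in both steps these were the 3 probes of 1 gene, Dbp. Between 3 and 9 months no probe passed (0 of 23529, 0%), by limma with an adjusted p threshold of 0.01, while 2578 probes (11%) had an unadjusted p under 0.05. The unadjusted share was 10.5% from 3 to 6 months and 8.87% from 6 to 9 months. Its direction moved with the scaling: 1954 probes were higher and 518 lower at 6 than at 3 months, but 820 and 1456 after quantile normalization, which shifted the median over all probes by -0.11. At an adjusted p under 0.05, 61 probes (0.259%) differed between 3 and 6 months, 49 of them higher and 12 lower at 6 months. The same threshold gave 6 probes (0.0255%) between 6 and 9 months and 19 (0.0808%) between 3 and 9 months, of which 16 were higher at 9 months. In the F test of any difference among the times, 4 probes (0.017%) passed at 0.01. The 3 to 6 month and 6 to 9 month steps share the 6-month arrays, so a transcript that is high or low in those arrays moves in both.

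Dbp, a transcription factor of the PAR bZIP family whose transcription is driven by the clock, was the gene that passed. Its level was 1.77, 1.53, 1.78 and 1.91 at 3 months, 3.87, 4.02, 4.14 and 3.79 at 6 months, and 1.68, 2.07, 1.66 and 1.85 at 9 months. The 6-month arrays stood above all others, with no overlap, and the 3-month and 9-month arrays overlapped. Dbp rose by 2.21 on the log2 scale (SE 0.13, n = 4 against 4, 4.62-fold, limma adjusted p = 4.44e-05) from 3 to 6 months. It fell by 2.14 (4.40-fold, limma adjusted p = 8.49e-05) from 6 to 9 months, and the 9-month level differed from the 3-month level by 0.07 (adjusted p = 0.851, limma). The other 2 Dbp probes gave 2.25 and 2.30 for the first step and -2.10 and -2.17 for the second.

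The difference in Dbp was present within each scan and slide that held both times. The 6-month array exceeded the 3-month arrays by 2.02 within scan 1 and by 2.49 within scan 2, and by 1.96 on slide 1. The 9-month arrays differed from the 6-month arrays by -2.20 within scan 1, by -1.94 within scan 3 and by -2.05 on slide 8. With slide as a block the sizes were 1.96 and -2.05, with adjusted p of 0.183 and 0.386. With the 6-month replicates 1 and 2 averaged and 3-month replicate 2 and 9-month replicates 2 and 3 left out, a choice made after seeing the data, the log2 changes were 2.14 and -2.19 with adjusted p of 0.0182 and 0.0456.

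Untreated controls of the same ages had Dbp levels of 1.99, 3.51 and 2.05 at 7 months, 3.59, 3.95, 4.56 and 4.08 at 10 months, and 1.61, 1.75 and 1.70 at 13 months. All 4 controls of 10 months of age were thus above all controls of 7 and 13 months. The nearest was replicate 2 at 7 months, an array with few thyroid transcripts (mean log2 level of the thyroid hormone synthesis list -4.82, against 1.60 and 1.39 in replicates 1 and 3). Among the controls Dbp fell by 2.36 from 10 to 13 months (adjusted p = 0.000212, limma fit of all 49 arrays), where 1609 probes (6.36%) were called. With the closely alike pairs averaged, the 13-month controls counting as 2 samples, that change was -2.35 (limma adjusted p = 0.00588), and the number of probes called went from 1609 to 8. From 7 to 10 months the control difference was 1.53 (limma adjusted p = 0.181), and 2.02 (limma adjusted p = 0.00422) without that replicate. The difference between the adult 50 kBq rats and the controls was 0.68 for the step from 3 to 6 months (limma adjusted p = 1.00) and 0.22 for the step from 6 to 9 months (limma adjusted p = 0.882), so neither step in Dbp differed from that of untreated rats beyond the spread. In young rats given 50 kBq, Dbp was at 1.77, 2.04, 1.66 and 1.74 at 6 months (7 months of age). These levels lay below those at 3 months (4 months of age), 2.82, 2.66, 2.32 and 2.14. From 3 to 9 months the adult change of 0.07 was above that of the young rats by 0.56 (limma adjusted p = 0.463). The mean of the young rats at 9 months, when they were 10 months of age, was thus also below their 3-month mean.

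Other clock genes were also apart at 6 months, each with values that did not pass. Ciart, a repressor of CLOCK and BMAL1, was at -7.53, -7.11, -8.05 and -6.51 at 3 months, -4.82, -4.81, -4.89 and -5.01 at 6 months, and -7.22, -7.01, -8.07 and -7.99 at 9 months. None of the 3-month arrays, all 4 of the 6-month arrays and 1 of the 9-month arrays measured it well above background. Ciart was at least 4.39-fold higher at 6 than at 3 months (limma adjusted p = 0.0259), and the fitted difference of 9 from 6 months was -2.69 (limma adjusted p = 0.0239), which rests on signals not well above background in 3 of the 4 later arrays. That bound takes, on each 3-month array, the lowest signal well above background or the probe's own, whichever is higher. With normexp background correction the differences shrank to 0.78 and -1.09, with adjusted p of 0.242 and 0.208. In the controls Ciart was at -5.28, -5.20, -3.66 and -4.66 at 10 months of age, and at -7.25, -8.51 and -5.74 at 13 months.

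Nr1d1, the nuclear receptor REV-ERB alpha that represses Bmal1, was at -2.78, -2.62, -1.60 and -1.85 at 3 months, -0.60, -0.69, -0.50 and -0.52 at 6 months, and -1.71, -2.16, -4.80 and -2.24 at 9 months. All 4 of the 6-month arrays were above the other 8 (1.64, adjusted p = 0.318, and -2.15, adjusted p = 0.457, limma). Bmal1, the activator itself, was at -0.14, 0.12, 0.13 and -0.22 at 3 months, -1.11, -0.94, -0.90 and -0.27 at 6 months, and 0.19, 0.15, -0.10 and 0.02 at 9 months. It was thus lowest where Nr1d1 was highest (-0.78, adjusted p = 0.128, and 0.87, adjusted p = 0.269, limma). Cry1, another repressor of the loop, was lower at 6 months by -0.81 (adjusted p = 0.167, limma). Npas2, a relative of CLOCK, was at -1.28, -1.26, -1.32 and -1.30 at 6 months and higher by 0.86 at 9 months (adjusted p = 0.387, limma). A second, dimmer Npas2 probe differed by 0.17 from 3 to 6 months and by 0.003 from 6 to 9 months (limma adjusted p = 0.735 and 0.996). Per2 showed differences of 0.02 and -0.14. Per3 was higher at 6 months by 0.65 on its brightest probe (adjusted p = 0.374) and by 0.97 on a second one (adjusted p = 0.0484, limma). Per3, Cry1 and Npas2 are named because they belong to the clock list, with their values already seen.

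Of the core clock list, 11 of 13 genes were tested. From 3 to 6 months 5 were higher and 2 lower at an unadjusted p under 0.05, and 5 and 2 had groups that did not overlap, where over all 12434 genes 7.97% were higher and 2.46% lower at that p and 4.31% and 2.57% did not overlap. From 6 to 9 months 3 were higher and 4 lower, against 5.57% and 3.84% of all genes. Of 7 clock output genes tested, Dbp was the one called. Nfil3, a repressor that binds the same sites as DBP, was 2.01-fold lower at 6 than at 3 months (limma adjusted p = 0.463) and 2.01-fold higher at 9 than at 6 months (limma adjusted p = 0.559), and Tef, a relative of Dbp, differed by 0.62 and -0.72. Wee1, a cell cycle kinase under clock control, differed by -0.30 and 0.52. The time of day at which each rat was killed is not given in the sources used here, and its part in these values was not tested.

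**Figure D2:**
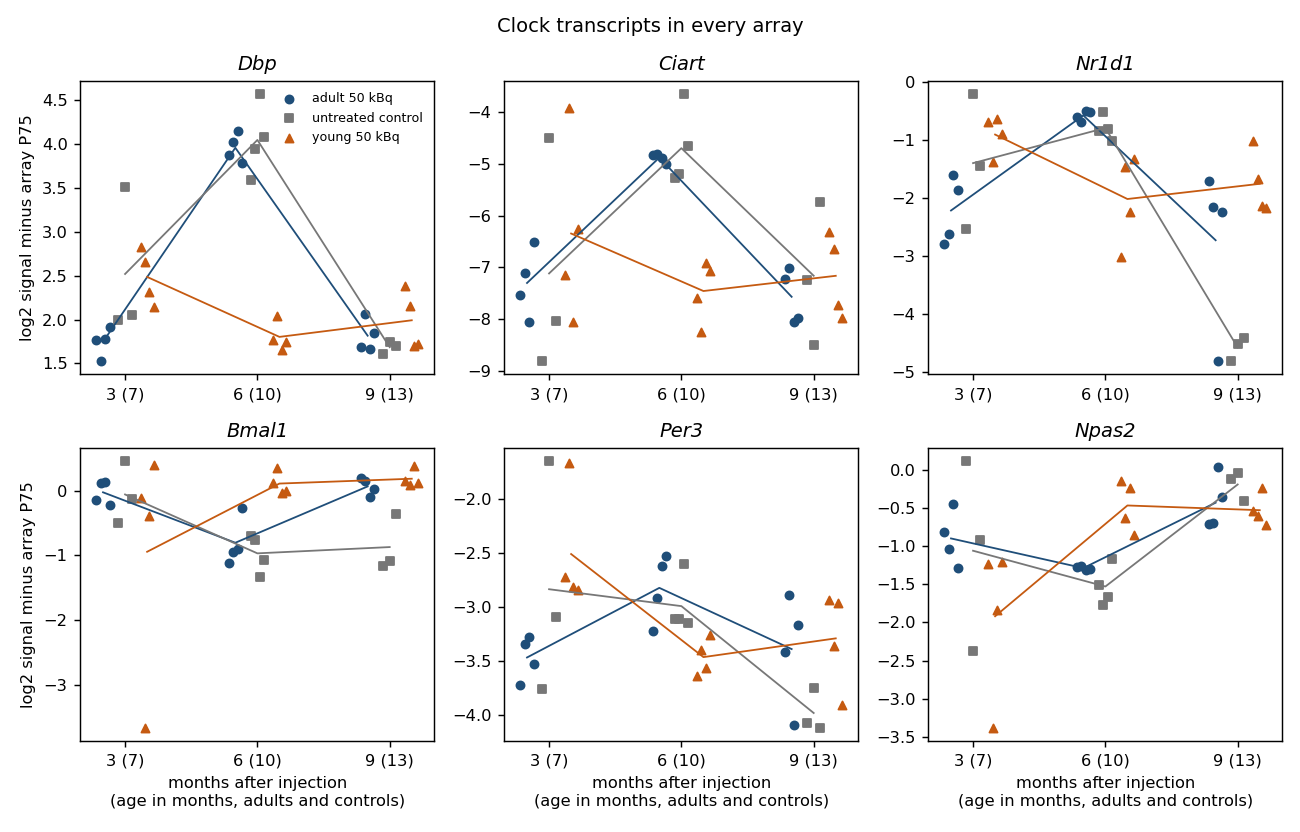
Log2 levels (vertical, relative to the array's 75th percentile) of Dbp, Ciart, Nr1d1, Bmal1, Per3 and Npas2 in every array against months after injection (horizontal; controls are placed at the adult age of that time); blue circles are adult rats given 50 kBq, grey squares untreated controls, orange triangles young rats given 50 kBq, and lines join group means. In adult rats Dbp sits between 3.79 and 4.14 at 6 months and between 1.53 and 2.07 at the other times.

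Promoter windows of 250 bases before and 50 after the annotated start were read from RefSeq (build GRCr8) to show what the leading genes of these groups carry. The E-box CACGTG, the same letters on both strands and the element that BMAL1 and CLOCK bind, was present in 1826 of 27457 windows (6.65%). Among 10 core clock windows 1 held it, that of Ciart, with 3 copies starting at -93, -35 and -21, and among 6 clock output windows 2 did (Bhlhe40 and Tef). Of 13 windows of the endoplasmic reticulum chaperones described below 3 held it (23.1%: Canx, Derl3 and Dnajb9), a larger share than the 10.0% of the core clock windows. The D-box TTATGTAA, searched on both strands, to which DBP binds, was in 242 windows (0.88%) and in that of Per2. The window of Dbp (chr1:105312006-105312305, plus strand) held neither. Other forms of these 2 elements, and sequence outside the windows, were not searched. The sequence of Ciart (chr2:186112197-186112496, minus strand) is shown with the E-boxes in capitals.
Ciart: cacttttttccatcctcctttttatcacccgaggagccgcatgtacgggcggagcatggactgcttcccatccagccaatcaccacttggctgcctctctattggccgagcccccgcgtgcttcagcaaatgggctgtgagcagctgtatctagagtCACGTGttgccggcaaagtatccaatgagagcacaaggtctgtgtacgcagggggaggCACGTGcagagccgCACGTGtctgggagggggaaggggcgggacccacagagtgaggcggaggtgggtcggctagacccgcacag

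Chaperones of the endoplasmic reticulum were lower at 6 months than at 3 months as a group, and at 9 months most lay between the 2 earlier levels. All 15 tested members of the list of 16 were lower at 6 months, with a median of -0.96 and a range of -2.27 to -0.39, where the median over all 12434 genes was 0.04. Of the 15, 14 had an unadjusted p under 0.05 and lower, against 2.46% of all genes, and 13 had groups that did not overlap, against 2.57%. None passed at 0.01, and 3 had an adjusted p under 0.05. From 6 to 9 months all 15 were higher, with a median of 0.61 and 12 at an unadjusted p under 0.05 (5.57% of all genes). From 3 to 9 months 12 of the 15 were lower, with a median of -0.39 and 5 at an unadjusted p under 0.05, against 1.62% of all genes.

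Herpud1, a membrane protein of the pathway that sends misfolded proteins from the endoplasmic reticulum to the proteasome, was at 3.96, 3.89, 3.50 and 4.06 at 3 months, 2.33, 2.35, 2.50 and 2.52 at 6 months, and 2.33, 2.75, 2.46 and 2.89 at 9 months. Every array at 6 and 9 months was below every array at 3 months. The change was -1.43 at 6 months (limma adjusted p = 0.0103, just outside the threshold) and -1.24 at 9 months (limma adjusted p = 0.0370). The limma adjusted p of the 6-month change depended on the processing. It was 0.0036 with quantile normalization, 0.0697 with 6-month replicates 1 and 2 averaged, and 0.2046 in the fit of all 49 arrays. Over the alternative settings it ran from 0.000889 (array weights) to 0.2998 (arrays that stand apart left out or averaged). The change itself stayed between -1.69 and -1.39 in these settings. Within scans 1 and 2 the 6-month difference was -1.45 and -1.42.

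Sdf2l1, a partner of the luminal chaperones, was at 4.13, 3.67, 3.50 and 4.06 at 3 months, 2.13, 2.16, 2.50 and 2.13 at 6 months, and 2.36, 3.06, 3.57 and 3.08 at 9 months (-1.61, adjusted p = 0.0334, then 0.79, adjusted p = 0.506, limma). Derl3, of the derlin family that moves misfolded proteins out of the endoplasmic reticulum, was at 2.88, 2.93, 2.19 and 2.63, then 0.37, 0.33, 1.17 and -0.29, then 0.75, 2.23, 2.02 and 1.51 (-2.27, adjusted p = 0.0420, then 1.24, adjusted p = 0.500, limma). In both genes the 3-month and 6-month arrays were separate and the 9-month arrays lay between and across them. Creld2, a secreted stress protein, was at 3.11, 2.44, 1.91 and 3.14, then 0.48, 0.52, 1.79 and 0.56, then 1.13, 1.55, 2.73 and 1.84 (-1.81, adjusted p = 0.132, limma).

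The general chaperones had smaller differences. Hspa5, the central luminal chaperone BiP, was at 5.63, 5.32, 4.97 and 5.56 at 3 months, 4.14, 4.33, 4.85 and 4.35 at 6 months, and 4.51, 4.86, 5.48 and 5.09 at 9 months (-0.96, adjusted p = 0.151, limma). Hsp90b1, the luminal HSP90, was at 4.27, 3.92, 4.07 and 4.13, then 2.85, 3.09, 3.53 and 3.08, then 3.21, 3.90, 4.45 and 4.26 (-0.96, adjusted p = 0.176, limma). In each of them 6-month replicate 3 was the highest of its group, and it was so for the mean level of the list (1.80, against 1.29, 1.36 and 1.35). Pdia4, a disulphide isomerase, and Hyou1, a large HSP70 relative, both differed by -1.06, and the calcium-binding chaperone Calr by -0.55 (adjusted p = 0.485, limma).

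Outside the list, Ficd and Piga were the next lower genes by p from 3 to 6 months. The 12 lower probes at an adjusted p under 0.05 were 1 of Herpud1, 2 of Sdf2l1, 1 of Derl3, 1 each of Ficd, Piga, Mia, Far1, Crygs and Amigo3, and 2 with no gene name. Ficd, the enzyme that switches BiP on and off by adding and removing AMP, was at -3.20, -3.48, -3.72 and -3.46 at 3 months, -5.12, -5.06, -4.43 and -4.59 at 6 months, and -4.76, -4.66, -4.51 and -4.29 at 9 months (-1.33 at 6 months, adjusted p = 0.0259, limma, and -0.88 with normexp background correction). Piga, which starts the glycolipid anchors built in the endoplasmic reticulum, was at -0.38, -0.61, -0.97 and -0.31, then -1.81, -1.96, -2.03 and -2.02, then -1.96, -2.08, -1.36 and -1.52 (-1.39, adjusted p = 0.0259, limma). In both, all arrays at 6 and 9 months were below all at 3 months, with 9-month differences of -1.09 (adjusted p = 0.0564) and -1.16 (adjusted p = 0.0540, limma). Atf4 targets, a second arm of the stress response, had a median of 0.00 from 3 to 6 months and cytosolic heat shock genes one of -0.10.

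**Figure D3:**
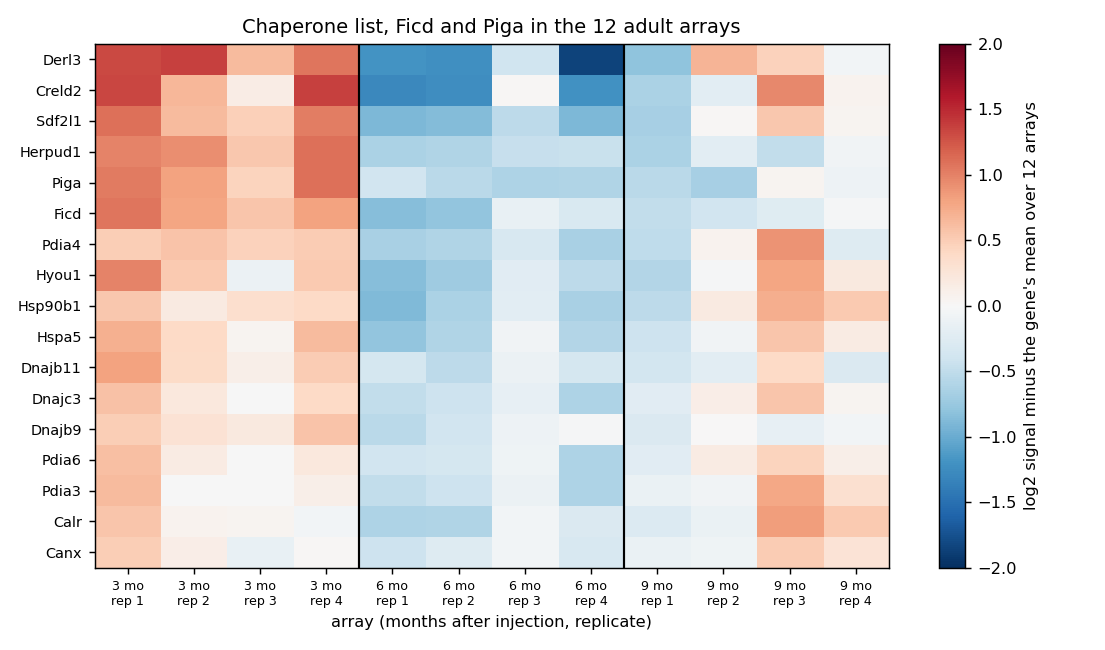
Heat map of 15 endoplasmic reticulum chaperones with Ficd and Piga (vertical) in the 12 arrays (horizontal); colour is the log2 level minus the gene's mean over the 12 arrays, on a scale ending at 2 in both directions. The 3-month arrays are above and the 6-month arrays below the mean in nearly every gene, with 6-month replicate 3 the least low and the 9-month arrays between.

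The endoplasmic reticulum stress element, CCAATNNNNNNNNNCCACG, searched on both strands, was found in 21 of 27457 promoter windows (0.08%). RefSeq gave windows for 13 of the chaperones, and 7 of them held it (53.9%): Calr, Canx, Creld2, Derl3, Dnajc3, Hsp90b1 and Hspa5. Herpud1, which led the group, was not among them, and other forms of the element were not searched for. The 4 of these genes whose values are given above are shown with the element in capitals, on either strand as read (an E-box elsewhere in Derl3 is not marked): Hspa5 (chr3:38452766-38453065, plus strand) at -43, Hsp90b1 (chr7:23012244-23012543, minus strand) at -176 and -72, Creld2 (chr7:121789134-121789433, plus strand) at -145 and Derl3 (chr20:12766416-12766715, minus strand) at -154.
Hspa5: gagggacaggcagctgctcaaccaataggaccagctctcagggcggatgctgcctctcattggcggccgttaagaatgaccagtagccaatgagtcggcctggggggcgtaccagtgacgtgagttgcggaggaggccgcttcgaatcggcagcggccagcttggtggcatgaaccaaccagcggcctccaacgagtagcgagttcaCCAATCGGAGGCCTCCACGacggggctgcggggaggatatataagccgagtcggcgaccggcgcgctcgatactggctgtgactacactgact
Hsp90b1: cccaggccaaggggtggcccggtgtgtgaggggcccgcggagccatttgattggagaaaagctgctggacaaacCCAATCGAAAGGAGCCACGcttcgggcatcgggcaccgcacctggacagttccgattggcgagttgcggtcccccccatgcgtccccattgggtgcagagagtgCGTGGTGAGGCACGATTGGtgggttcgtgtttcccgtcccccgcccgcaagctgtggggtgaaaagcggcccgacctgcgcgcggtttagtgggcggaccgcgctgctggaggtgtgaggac
Creld2: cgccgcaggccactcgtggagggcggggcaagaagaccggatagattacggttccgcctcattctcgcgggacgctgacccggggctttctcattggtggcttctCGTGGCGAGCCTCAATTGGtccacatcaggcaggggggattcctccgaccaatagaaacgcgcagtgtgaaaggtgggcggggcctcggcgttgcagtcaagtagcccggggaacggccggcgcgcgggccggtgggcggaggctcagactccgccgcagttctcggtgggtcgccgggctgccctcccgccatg
Derl3: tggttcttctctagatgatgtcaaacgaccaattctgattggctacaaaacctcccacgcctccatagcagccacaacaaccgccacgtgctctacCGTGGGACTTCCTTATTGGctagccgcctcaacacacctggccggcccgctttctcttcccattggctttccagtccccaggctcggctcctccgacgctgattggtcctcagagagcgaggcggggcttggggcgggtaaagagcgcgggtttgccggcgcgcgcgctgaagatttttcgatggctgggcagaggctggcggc

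In untreated controls the chaperone list was lower at 10 than at 7 months of age and higher at 13 months. From 7 to 10 months of age its median was -0.19 with 11 of 15 lower, and -1.10 with all 15 lower without the replicate that has few thyroid transcripts. From 10 to 13 months the control median was 1.32 with all 15 higher. Tissue markers moved in the same step of the controls: slow skeletal muscle had a median of -4.23 (0 of 10 higher), fast skeletal muscle one of -2.53 (0 of 12 higher), the respiratory chain one of -1.02 (0 of 19 higher) and thyroid hormone synthesis one of 0.83 (11 of 11 higher), and their part in the chaperone values was not tested. Herpud1 in the controls was at 4.20, 2.85 and 2.90 at 7 months, 2.44, 2.86, 2.95 and 3.38 at 10 months, and 3.72, 3.62 and 4.95 at 13 months. The 13-month controls were thus above the 9-month adult 50 kBq arrays, which are of the same age, with no overlap. The change of Herpud1 from 3 to 9 months after injection differed from that of the controls by -2.02 (adjusted p = 0.0433, limma), and by -1.79 (adjusted p = 0.267) without control replicate 2 at 7 months. With the closely alike pairs averaged it was -2.23 (adjusted p = 0.132, limma). In young rats given 50 kBq the list's median was 0.76 from 3 to 6 months, the opposite sign to the adults. Without the weak array described at the end it was 0.66. The young rats were 4 and 7 months of age at these times. From 6 to 9 months, when they went from 7 to 10 months of age, their median was -0.13 with 14 of 15 lower.

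Genes of fatty acid synthesis were higher at 6 and 9 months than at 3 months, again short of the threshold. All 8 tested members of the list of 10 were higher at 6 months, with a median of 1.19 and 7 at an unadjusted p under 0.05, against 7.97% of all genes. Only 2 had groups that did not overlap, against 4.31% of all genes. At 9 months all 8 were higher than at 3 months, with a median of 1.07 and 6 at an unadjusted p under 0.05 (9.07% of all genes), where the median of all genes was 0.07.

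Fasn, the fatty acid synthase, was at 5.21, 5.81, 4.74 and 4.29 at 3 months, 6.48, 6.63, 5.47 and 6.18 at 6 months, and 6.57, 5.90, 6.04 and 5.62 at 9 months (1.18, adjusted p = 0.244, limma). The 3-month and 6-month arrays overlapped, and the difference was 1.96 within scan 1 but -0.04 within scan 2. Scd, which makes fatty acids monounsaturated, was at 5.75, 6.27, 5.21 and 4.96, then 6.79, 7.33, 6.58 and 6.93, then 6.97, 6.77, 6.65 and 6.63, with 3 months below both later times in every array (1.36, adjusted p = 0.0807, limma). Thrsp, a lipogenic gene driven by thyroid hormone, was at 3.91, 4.60, 3.93 and 3.14, then 5.24, 5.50, 4.46 and 5.17, then 5.69, 4.99, 5.11 and 4.82 (1.20 at 6 months, adjusted p = 0.189, limma). At 9 months every Thrsp value was above every 3-month value (1.26, adjusted p = 0.202, limma). Elovl6, an elongase, Acly, which makes acetyl-CoA, and Acaca, which makes malonyl-CoA, differed by 1.65, 1.28 and 0.96 from 3 to 6 months. These genes are list members whose values had been seen.

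Fat cell markers were higher at the same times. Of 7 brown adipocyte genes tested, 6 were higher at 6 months (median 1.02) and 5 had an unadjusted p under 0.05, against 7.97% of all genes. Otop1, a proton channel of brown fat, had an adjusted p of 0.0393 (1.02, limma), at -5.96, -5.60, -6.07 and -5.94 and then -4.68, -4.71, -5.25 and -4.87. Ucp1, the uncoupling protein, was at 4.02, 5.43, 4.31 and 3.30 at 3 months, 6.05, 6.13, 4.24 and 5.78 at 6 months, and 5.84, 5.77, 5.83 and 4.40 at 9 months, so the groups overlapped (1.29, adjusted p = 0.428, limma). All 10 white adipocyte genes tested were higher at 6 months (median 0.73) and at 9 months (median 0.79). Among them Lep, the fat hormone leptin, was at -8.75, -7.11, -7.66 and -7.09 at 3 months, where 2 of the 4 arrays measured it above background, then at -6.30, -6.60, -6.58 and -6.26 and at -5.46, -6.18, -6.23 and -5.54 (1.80 from 3 to 9 months, adjusted p = 0.0780, limma). Adipoq, or adiponectin, differed by 0.77 and 0.90 from 3 months. The part of fat tissue in the fatty acid values was not tested, and in such bulk RNA fewer cells of a type and less RNA per cell cannot be told apart. In controls the fatty acid list had medians of 0.84 from 7 to 10 months and -0.76 from 10 to 13 months. Without control replicate 2 at 7 months the first was 1.23. The white adipocyte list had control medians of 0.09 (0.34 without that replicate) and -0.77 in these steps. Those of the brown adipocyte list were -0.004 (0.40 without it) and -0.97.

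**Figure D4:**
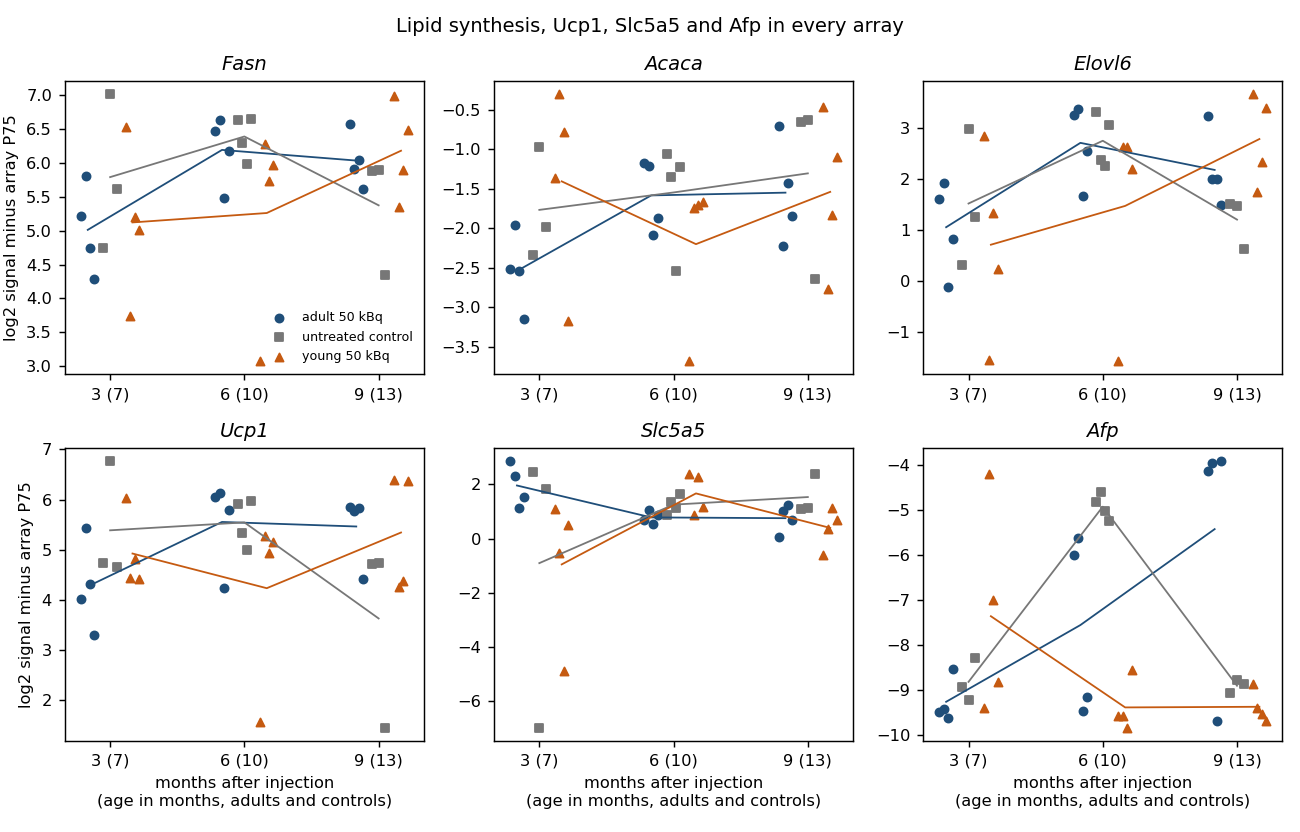
Log2 levels (vertical, relative to the array's 75th percentile) of Fasn, Acaca, Elovl6, Ucp1, Slc5a5 and Afp in every array against months after injection (horizontal; controls are placed at the adult age of that time); blue circles are adult rats given 50 kBq, grey squares untreated controls, orange triangles young rats given 50 kBq, and lines join group means. Adult Fasn is lowest at 3 months (4.29 to 5.81), adult Slc5a5 highest at 3 months (1.14 to 2.86), and adult Afp lies at -8.54 or below or at -6.00 or above.

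Thyroid function genes had smaller differences. Of 11 hormone synthesis genes 9 were lower at 6 than at 3 months, with a median of -0.32 and 3 at an unadjusted p under 0.05 (2.46% of all genes), and the 9-month median was -0.09. Slc5a5, the sodium iodide symporter, was at 2.86, 2.32, 1.14 and 1.53 at 3 months, 0.68, 1.04, 0.54 and 0.86 at 6 months, and 0.07, 1.01, 1.26 and 0.67 at 9 months. The 3-month arrays were all above the 6-month arrays, while 9-month replicate 3 exceeded the lowest 3-month array (-1.18, adjusted p = 0.256, and -1.21, adjusted p = 0.284, limma). Iyd, which recovers iodide, and Ano1, a chloride channel of thyrocytes, differed by -0.76 and -0.77 at 6 months (adjusted p = 0.276 and 0.268, limma).

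Tshr, the thyrotropin receptor, differed by -0.25 from 3 to 6 months and by 0.79 from 6 to 9 months. The thyrocyte transcription factors Pax8, Nkx2-1 and Foxe1 differed by -0.03, -0.34 and -0.10 at 6 months and by 0.47, 0.48 and 0.17 in the next step, all with overlapping groups. The deiodinase Dio1, which converts thyroxine to the active hormone, differed by -0.33 and 0.32, and Dio2, which does so in other tissues such as brown fat, by 0.99 and -0.38. C cells, which make calcitonin, had a median of 1.29 from 3 to 9 months with all 15 genes higher, but only 1 at an unadjusted p under 0.05 against 9.07% of all genes. Their calcitonin gene Calca was at 6.71, 6.47, 6.98 and 5.72 at 3 months and 6.63, 7.53, 6.94 and 7.53 at 9 months (0.69, adjusted p = 0.457, limma).

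Squamous epithelium gave the largest list median of the 39 lists, and it rested on a few arrays. The mean log2 level of the list was -5.11, -5.78, -6.44 and 1.37 at 3 months, 0.84, 0.75, -5.36 and -1.82 at 6 months, and -6.58, -6.49, -5.95 and -6.32 at 9 months. From 6 to 9 months 11 of 12 genes were lower (median -5.52), 8 at an unadjusted p under 0.05 (3.84% of all genes) and 8 with groups that did not overlap (2.36%). Krt5, the basal keratin, was at -5.67, -6.59, -7.06 and 1.44, then 1.02, 0.66, -5.97 and -1.97, then -7.35, -6.16, -6.38 and -6.52. The high arrays were 3-month replicate 4 and 6-month replicates 1, 2 and 4, and none was at 9 months. Myh4 of fast muscle and Scgb1a1 of airway epithelium showed no separation of the times. Myh4, a fast myosin, was at 5.25 to 7.20 in all arrays but 9-month replicate 3 (-2.50). Scgb1a1 ranged from -8.59 to -0.79. Col2a1 of cartilage, Cd3e of T cells, the class II gene RT1-Bb, Krt7 of simple epithelium, the muscle gene Ankrd2 and the mitochondrial carrier Slc25a5 had overlapping groups in all 3 comparisons. A second, dimmer RT1-Bb probe differed by 2.25 from 3 to 6 months and by -4.50 from 6 to 9 months (limma adjusted p = 0.859 and 0.613). From 3 to 9 months it differed by -2.25 (limma adjusted p = 0.774).

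Some transcripts differed strongly between rats of 1 group. Afp, alpha-fetoprotein, was at -9.48, -9.42, -9.62 and -8.54 at 3 months, -6.00, -5.61, -9.46 and -9.16 at 6 months, and -4.13, -3.96, -9.69 and -3.91 at 9 months. Thus none of 4, then 2, then 3 of the arrays were high (9 against 3 months, at least 3.08-fold higher at 9 months, adjusted p = 0.335, limma). In controls Afp was at -4.82, -4.59, -5.03 and -5.25 at 10 months of age and at -9.23 to -8.30 at 7 months and -9.07 to -8.78 at 13 months. Vegfb, a growth factor of the VEGF family, was at -9.01, -0.17, -0.05 and -8.51 at 3 months, at 0.24, 0.04, -9.34 and -8.98 at 6 months, and at -8.50 or less in all 9-month arrays. Cd300lg, an endothelial receptor, was low in 6-month replicate 3 (-5.32) and 9-month replicate 1 (-5.33).

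Of the remaining leading transcripts, none passed at 0.01 in a comparison of 2 times. Lipn, a lipase known from skin, was at -5.91, -6.14, -5.85 and -5.46 at 3 months, -3.89, -3.70, -4.44 and -3.96 at 6 months, and -4.84, -4.79, -5.51 and -4.80 at 9 months, apart at each step except for 9-month replicate 3 among the 3-month values (1.84 at 6 months, adjusted p = 0.0173, limma, and 1.02, adjusted p = 0.121, with normexp background correction). Pced1b was higher at 6 months by 1.22 (adjusted p = 0.0259, limma). Car1, carbonic anhydrase 1, was at -4.65, -4.82, -4.49 and -4.58, then -3.92, -3.81, -3.61 and -3.86, then -2.97, -3.50, -3.57 and -3.43, each time above the one before with no overlap (1.27 from 3 to 9 months, adjusted p = 0.0327, limma). Fam161a, a protein of the ciliary base, was higher at 9 than at 3 months by 1.41 (adjusted p = 0.0370, limma) and Serpina11, a serpin, by 1.51 (adjusted p = 0.0405, limma), or by 1.02 and 0.96 with normexp background correction. MGC116197, singled out after its values were seen as the only gene beside Dbp in the F test (adjusted p = 0.00927, limma), was at -5.37, -5.53, -5.87 and -5.72, then -4.22, -4.16, -4.03 and -4.73, then -4.05, -4.04, -4.06 and -3.88, so that both later times were above 3 months.

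Kera, the proteoglycan keratocan of connective tissue, was at -4.31, -6.54, -6.09 and -4.90 at 3 months and -6.69, -6.88, -4.51 and -4.76 at 6 months, but at -9.49, -8.69, -9.96 and -9.85, not well above background, at 9 months. It was at least 4.35-fold lower than at 3 months (adjusted p = 0.0540, limma) and at least 3.66-fold lower than at 6 months (adjusted p = 0.182, limma). In the controls Kera was at -5.58, -6.46, -4.78 and -4.76 at 10 months of age and at -9.07, -8.79 and -8.89 at 13 months, the same order. The olfactory receptor probe Or6c70 was well above background in the 9-month arrays only, at least 1.09-fold higher than at 3 months (adjusted p = 0.0436, limma) and at least 1.23-fold higher than at 6 months (adjusted p = 0.0239, limma). With normexp background correction Kera differed by -1.25 and -1.19 and Or6c70 by 0.12 and 0.17. The dim probe Or52h1 differed by -0.94 from 3 to 9 months (adjusted p = 0.0436, limma). From 6 to 9 months Lonrf3, a RING finger protein, was higher by 1.26 (adjusted p = 0.118), Kiaa0040 by 0.76 (adjusted p = 0.118) and Olr1057, another olfactory receptor, by 1.74 (adjusted p = 0.137, limma; 0.44 with normexp background correction).

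Genes linked to radiation damage showed small differences. The p53 targets had medians of 0.10, 0.05 and 0.08 for 6 against 3, 9 against 6 and 9 against 3 months, and 4 of 12 were higher from 3 to 9 months at an unadjusted p under 0.05 (9.07% of all genes). Cdkn1a, the cell cycle inhibitor p21, was at 2.03, 1.88, 2.17 and 2.00 at 3 months, 1.99, 2.36, 2.33 and 2.46 at 6 months, and 2.03, 2.03, 2.33 and 2.38 at 9 months (0.27, adjusted p = 0.532, limma). DNA repair genes had a median of -0.02 at 6 months, and proliferation genes medians of 0.13 and then -0.37. The respiratory chain list was higher in all 19 genes at 6 months (median 0.22) and lower in 18 at 9 months (median -0.28), with 3 higher (7.97% of all genes) and 0 lower (3.84%) at an unadjusted p under 0.05 by limma and none adjusted. Cholesterol synthesis genes had medians of 0.23 and -0.31, with 5 of 17 lower from 6 to 9 months at that p (3.84% of all genes).

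**Figure D5:**
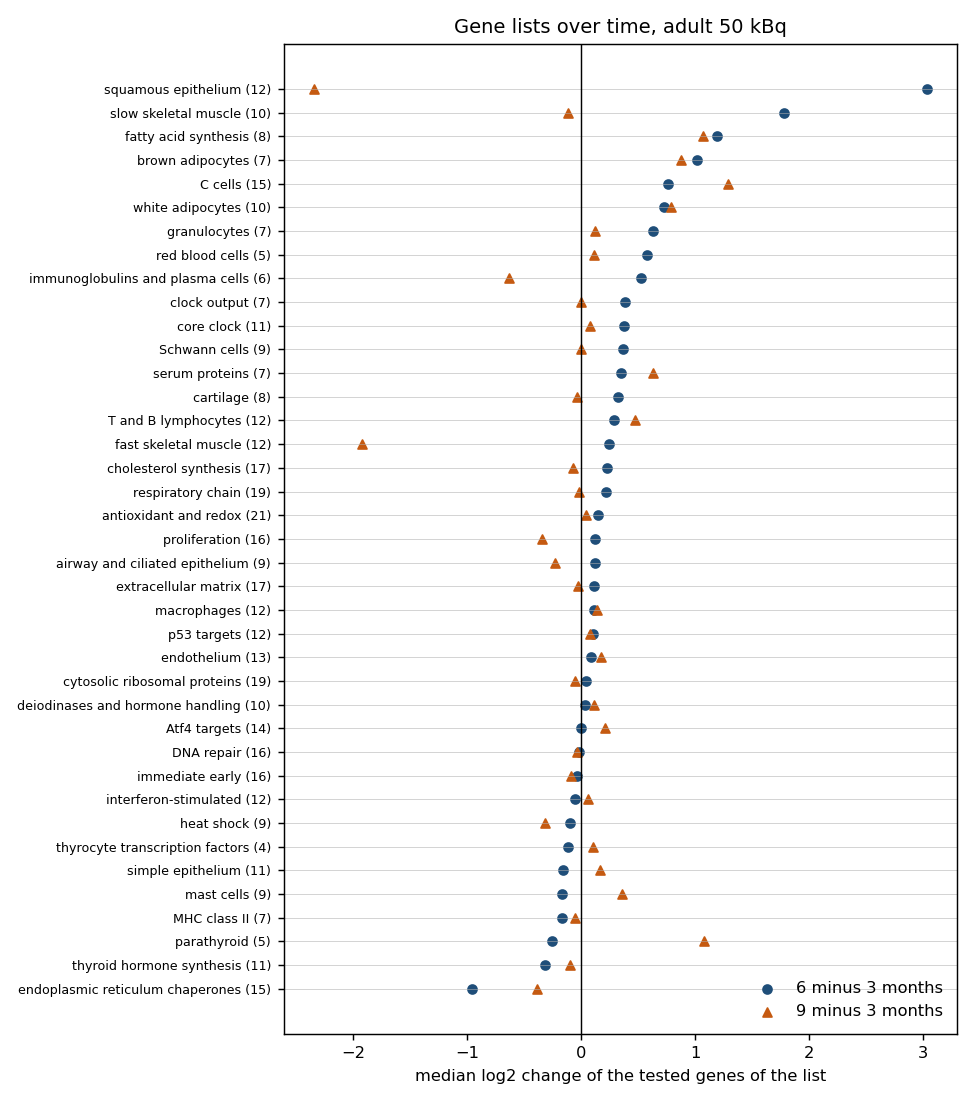
Median log2 change (horizontal) of 39 gene lists (vertical, with the number of genes tested), circles for 6 minus 3 months and triangles for 9 minus 3 months in adult rats given 50 kBq. Endoplasmic reticulum chaperones lie at -0.96 and -0.39, fatty acid synthesis at 1.19 and 1.07, and the largest sizes are those of neighbouring tissues.

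Whether the course over time differed from that of untreated rats was tested as the difference of 2 differences, in 1 limma fit of all 49 arrays and 25284 probes. At an adjusted p under 0.01 no probe passed for the step from 3 to 6 months (0 of 25284, 0%; 1072 probes, 4.24%, at an unadjusted p under 0.05). None passed from 6 to 9 months (0%; 2742 probes, 10.8%, unadjusted) or from 3 to 9 months (0%; 3935 probes, 15.6%, unadjusted). In the last, 90 probes (0.356%) had an adjusted p under 0.05, among them Dusp1, a phosphatase induced by stress, with a difference of 2.90 (adjusted p = 0.0289, limma), and an adjusted p of 0.219 without control replicate 2 at 7 months. Against young rats given 50 kBq no probe passed for the step from 3 to 9 months (0%; 4811 probes, 19%, unadjusted). Replicate 2 of the young rats at 3 months was a weak array, with 43.1% of its probes well above background, against 69.2% to 75.8% in the other 3 of its group. Without it no probe passed either, and 1518 probes were higher and 362 lower at an unadjusted p under 0.05, against 4190 and 621 with it. The median over all probes of these differences moved with the scaling: it was 0.15, -0.21, 0.00 and 0.31 in the 4 tests, and 0.00, -0.05, 0.01 and -0.11 after quantile normalization.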

How the data were processed

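Thyroid RNA of single rats was hybridised to one-colour Agilent SurePrint G3 rat arrays. The authors deposited 1 scanner file per array, and per the file headers its processed intensities are background-subtracted signals from Agilent Feature Extraction, together with 0 or 1 marks for outliers, saturation and signals well above background, which the authors deposited unchanged. A deposited series table holds the authors' own fold changes between treated and control groups, and it was not used. The submitters' processing notes name Partek, with neither role nor version, and the study's methods name Nexus Expression for comparing exposed with unexposed rats. Neither was rerun here.

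Control spots (4259 of 62976) and outlier-marked spots were dropped, log2 intensities were set relative to each array's 75th percentile, and repeated spots of a probe were averaged. Probes well above background on 3 or more of the 12 arrays were tested (23529 probes), and 27 values missing through outlier marks were left out of the fits. A gene was represented by its probe with the highest mean level (12434 genes). The tests used limma (3.58.1; R 4.3.3) on the 12 arrays, with 1 mean per time, no covariate and Benjamini-Hochberg adjustment, and differences from controls or young rats in a fit of all 49 arrays. The precision is limited by 4 arrays a group, and the smallest exact two-sided p for 4 against 4 is 0.0286.

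The arrays, the 39 gene lists and the genes were chosen with earlier results of these data known. Named are, per comparison and direction, up to 8 called genes with groups that did not overlap or the next by p up to 4, then 30 genes fixed by name (among them Tg, Slc5a5, Pth, Dbp, Afp, Vegfb and Ucp1), list members, and MGC116197. Some genes picked by this rule are not reported here. Lists are described by counts and medians, without a test. Alternatives were quantile and normexp scaling, other filters on dim probes, slide, scan and replicate blocks, array weights, a threshold of 0.05, other sets of samples, each array left out, and, added after seeing the data, closely alike arrays averaged and outlying arrays left out. Replicate numbers do not pair the rats: deviations of 12 same-numbered pairs of arrays correlated at -0.36 to 0.54, and those of 36 other pairs at -0.76 to 0.67. The promoter motif search used Python 3.11.15.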

Additional observations from a re-analysis of the deposited data

Results flagged for a closer look

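Of 261 groups of 4 values (48 genes and the mean levels of 39 lists at 3 times), 30 held 1 array whose distance to the next, as a share of the group's range, was above Dixon's critical value. Chance alone gives about 1 in 20 such groups, and genes of 1 tissue are counted more than once. All values are log2 levels or mean log2 levels of a list, and none of the differences has a tested cause.

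At 3 months, replicate 2 was low for slow skeletal muscle (-2.24, the others 2.03 to 2.65) and Or52h1 (-8.36), and high for macrophages (-0.75) and for deiodinases and hormone handling (-2.56). Replicate 4 was high for squamous epithelium (1.37, the others -6.44 to -5.11) and its keratin Krt5 (1.44).

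At 6 months, replicate 3 was high for endoplasmic reticulum chaperones (1.80, the others 1.29 to 1.36) and for Sdf2l1 (2.50), and low for brown adipocytes (0.47), interferon-stimulated genes (-2.08) and Cd300lg (-5.32, the others -1.05 to -0.22). Replicate 4 was high for Dio2 (-1.59) and cartilage (-3.88) and low for macrophages (-1.40) and mast cells (-4.26).

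At 9 months, replicate 3 was low for fast skeletal muscle (-1.97) with Myh4 (-2.50), slow skeletal muscle (-4.35), Afp (-9.69, the others -4.13 to -3.91), Lipn (-5.51), Slc25a5 (3.73), and the clock output list (-0.19) with Tef (-0.43) and the core clock gene Nr1d1 (-4.80). Replicate 2 was low for Pth (-7.77). Replicate 1 was low for thyroid hormone synthesis (0.67, the others 1.09 to 1.15) and Foxe1 (1.73). Replicate 4 was low for Ucp1 (4.40) and mast cells (-3.29) and high for p53 targets (-0.61).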

How the results depend on the processing

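The counts of called probes were 3 from 3 to 6 months, 3 from 6 to 9 months, 0 from 3 to 9 months and 4 in the F test, and other settings are given in that order. With slide as a block they were 0, 0, 0 and 0, with only 3 slides holding more than 1 group. With scan date as a block the step from 6 to 9 months gave 5. Array weights gave 62, 4, 5 and 61. An adjusted p under 0.05 gave 61, 6, 19 and 17. With the arrays that stand apart left out or averaged, an alternative chosen after seeing the data, they were 0, 0, 0 and 0. Averaging the closely alike 6-month arrays alone, also chosen after seeing the data, gave 3, 3, 0 and 3. Leaving out 1 array at a time gave 3 to 6 from 3 to 6 months (6 without 6-month replicate 4, 5 without 6-month replicate 3 or 9-month replicate 3), 3 to 4 from 6 to 9 months, 0 to 3 from 3 to 9 months (3 without 6-month replicate 4) and 3 to 6 in the F test.

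For the differences from controls, all 0, quantile normalization gave 1 for the step from 6 to 9 months, and an adjusted p under 0.05 gave 90 for 3 to 9 months. Leaving out 1 array at a time gave 0 to 1 for 3 to 6 months (1 without control replicate 2 at 7 months), 0 to 6 for 3 to 9 months (6 without control replicate 1 at 7 months), and 0 to 2 for the difference from young rats (2 without young replicate 1 at 3 months). The replicate block, where the numbers do not pair the rats, gave 3, 3, 0 and 3, and 0 in each difference from controls or young rats. None of the log2 changes and list medians recomputed under these settings changed its sign. The scaling decided the balance of small differences: at an unadjusted p under 0.05, 1954 probes were higher and 518 lower at 6 than at 3 months, and 820 and 1456 after quantile normalization, and 1224 and 430 with normexp background correction. For 9 against 6 months the numbers were 1260 and 828, 1879 and 682 after quantile normalization, and 790 and 920 with normexp, which turned the balance. For 9 against 3 months they were 2228 and 350, 1163 and 603, and 1093 and 373. The chaperone median from 3 to 6 months stayed between -1.22 and -0.86 over these settings, left-out arrays included, that of fatty acid synthesis between 0.94 and 2.10 (the highest with slide as a block), and that of C cells from 3 to 9 months between 0.47 (slide as a block) and 1.61. Signals near background, such as Ciart, Kera and the olfactory receptors, have a bound rather than a level. The causes of these shifts were not tested.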
